A study of Mus musculus with 9 samples.

Results

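The genes described here encode the proteins of the mitochondrial ribosome, followed in a mouse podocyte line under 3 conditions. They are the rows of the deposited gene table whose symbol begins with Mrpl or Mrps followed by a digit and whose transcript types include protein_coding, 78 of 55385 rows. For 10 of the 78, protein_coding was the sole transcript type listed. All 78 passed the filter on low counts that left 17680 genes tested.

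The mitochondrial ribosome translates the few messenger RNAs of mitochondrial DNA, whose products are core subunits of the respiratory chain and ATP synthase. Its ribosomal RNAs are made in the organelle, whereas all of its proteins are encoded in the nucleus, made on cytosolic ribosomes and imported. Many of the proteins have a homologue in the bacterial ribosome, and others were added during the evolution of mitochondria. Podocytes, the epithelial cells that cover the capillaries of the kidney glomerulus, are known to draw part of their energy from mitochondrial respiration.

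The wild-type cell line, labelled MCP5, was sequenced in 9 libraries. The 3 control libraries were untreated (blank), 3 had received high glucose at 50 mmol/L, and 3 had received 400 µg/mL of advanced glycation end products (AGEs), which are proteins modified by sugars. The sources used here do not state how long the cells were treated, how much glucose the control medium held, or whether osmolality and the carrier protein of the AGEs were controlled for. No label says that the libraries of a group came from separate cultures. The p-values below therefore rest on the variation among libraries, part or all of which may be technical.

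Total counts were 46284878 to 77242281 per library. On a principal component with 41.0% of the variance the high glucose libraries lay apart from the other 6, and on the next (11.9%) AGEs library 3 lay apart. Of the podocyte markers, Cd2ap, Kirrel1 (listed as Kirrel), Podxl and Synpo were present, while Wt1 had 11 counts and Ptpro 5 counts over all libraries. Levels are given as CPM, counts scaled to library size with TMM factors. Summed CPM of 4 parietal epithelial markers was 411 to 429 for control, 1286 to 1470 for high glucose and 383 to 517 for AGEs. Summed CPM of 5 tubular markers was 123 to 126, 355 to 396 and 121 to 158 in the same order, with Slc34a1 and Umod at 0 in every library. Summed CPM of 5 endothelial, 5 mesangial or fibroblast and 5 leukocyte markers was at most 11.8, 60.5 and 143, each highest in high glucose. These marker levels moved with the high glucose group and so with every result in it, and their part in the results was not tested. In bulk RNA, fewer cells of a type and less RNA per cell cannot be told apart.

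The 78 genes lie on 17 chromosomes. By the present understanding of the ribosome, 51 encode large-subunit proteins, among them Mrps18a and Mrps30 despite their names, and 26 encode small-subunit proteins. Mrps36 is now counted with the oxoglutarate dehydrogenase complex. Of the remaining genes, 46 have a bacterial homologue and 31 are classed as specific to mitochondria.

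Among the 78 genes the levels spanned a wide range. The deposited FPKM, which divide by transcript length, allow genes to be compared, and group means in control ran from 3.24 to 101 FPKM, with a median of 20.3. Mrpl54, a mitochondria-specific large-subunit protein, had the highest mean over all libraries, at 101 ± 12 FPKM for control (SD, n = 3), 90.01 ± 3.82 for high glucose and 81.8 ± 5.18 for AGEs. Mrpl12, which forms the stalk that recruits translation factors and also binds the mitochondrial RNA polymerase, followed at 85.4 ± 7.45, 83.2 ± 3.36 and 80.5 ± 10.3 FPKM. Mrpl2, a core protein near the peptidyl transferase centre, was at 73.1 ± 4.41, 60.6 ± 1.56 and 63.8 ± 4.38 FPKM. In high glucose alone the highest mean was that of Mrps21, at 98.6 ± 10.7 FPKM. The intervals of mean ± SD of Mrpl54 and Mrpl12 met in all 3 groups, and those of Mrpl12 and Mrpl2 met in none. The lowest 3 by mean over all libraries were Mrpl48 (3.24 ± 0.0521 FPKM in control), Mrps35 (3.29 ± 0.139) and Mrpl53 (4.58 ± 3.45), and their levels in control were not separated beyond their spread.

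The comparison of high glucose with control shows which of these genes change in cells given more glucose. In high glucose 28 of the 78 genes were lower, 9 were higher and 41 did not pass the test (edgeR quasi-likelihood test, Benjamini-Hochberg adjusted p under 0.05 over all genes tested). As a share this was 35.9% lower and 11.5% higher, against a background of 19.7% lower and 19.6% higher over all 17680 genes. The median log2 fold change was −0.22 over the 78 genes and 0.03 over all genes. The changes were small: the middle 50% of the 78 genes lay between −0.44 and −0.03 on the log2 scale, and that of all genes between −0.42 and 0.57. Among the 10 genes listed with protein_coding alone, 0 were lower and 2 were higher.

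How many of the genes count as lower depends on how the libraries are scaled. The TMM factors were 0.960 to 0.974 in control and 1.07 to 1.10 in high glucose. Without them, on total counts alone, 19 of the 78 genes were lower and 14 higher, 24.4% and 17.9%, against 12.9% lower and 27.2% higher over all genes. All 19 were among the 28, and all 9 higher genes stayed higher. Total-count scaling moved the median of all genes from 0.03 to 0.21 and that of the 78 genes from −0.22 to −0.04. A change of scaling factors shifts all genes by nearly the same amount, so it cannot move the distance between these medians. Relative to the median of all genes, the median of the 78 genes lay at −0.25 under either scaling. On log2(FPKM + 1) and log2(FPKM + 0.1) in place of counts, it lay at −0.11 and −0.20. As a share of all counts in a library, the 78 genes together took 0.452 ± 0.0220% for control, 0.454 ± 0.0260% for high glucose and 0.420 ± 0.00998% for AGEs (SD, n = 3). The summed share in high glucose and in control thus differed by less than the spread between libraries.

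**Figure D1:**
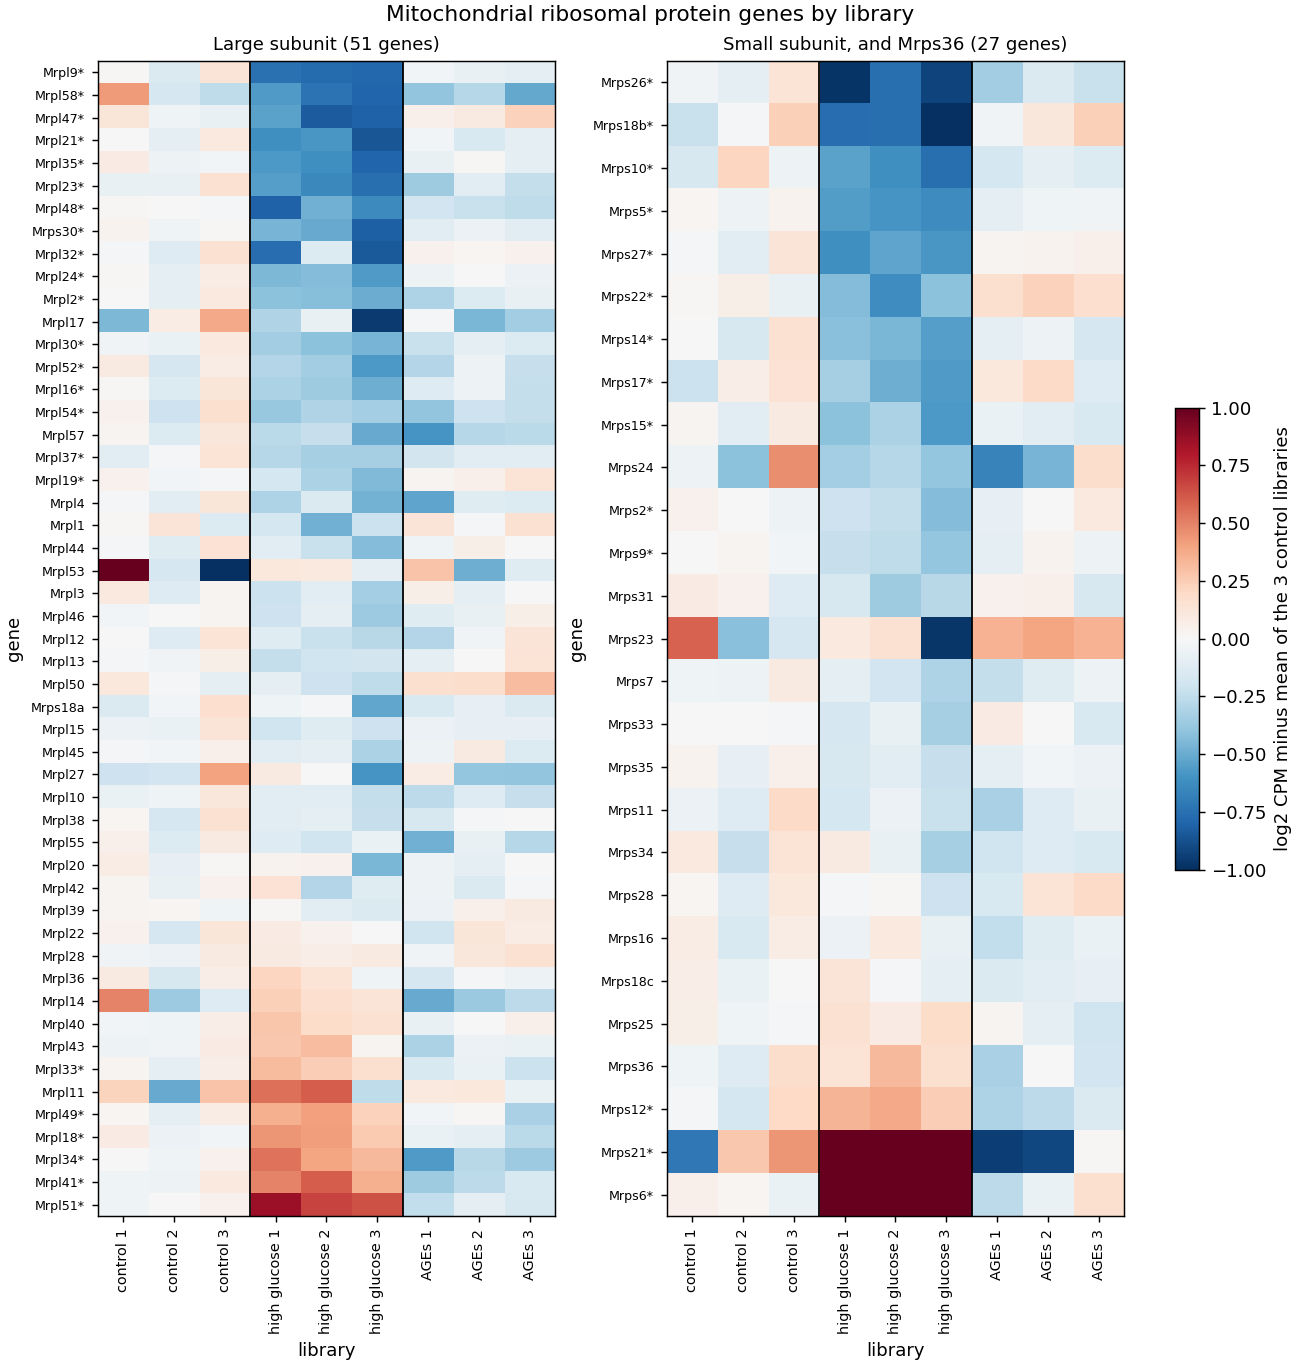
Heat map of the 78 genes (rows, ordered by log2 fold change in high glucose) in the 9 libraries (columns), large subunit on the left and small subunit with Mrps36 on the right. Colour gives log2 CPM minus the mean of the 3 control libraries, with the scale ending at ±1. An asterisk marks the 37 genes called in high glucose. In the high glucose columns the 28 lower genes are blue and the 9 higher genes red. Mrps21 is blue in AGEs libraries 1 and 2, and Mrpl34 in all 3 AGEs libraries.

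Both subunits held genes of either direction. Of the 51 large-subunit genes, 17 were lower and 6 higher, 33.3% and 11.8%. Of the 26 small-subunit genes, 11 were lower and 3 higher, 42.3% and 11.5%. The shares over all genes were 19.7% lower and 19.6% higher. The median log2 fold changes of the large-subunit and small-subunit genes were −0.21 and −0.24. Of the 46 genes with a bacterial homologue, 18 were lower and 6 higher, 39.1% and 13%. Of the 31 mitochondria-specific genes, 10 were lower and 3 higher, 32.3% and 9.68%. The medians of the bacterial-homologue and mitochondria-specific genes were both −0.22. No difference between these classes was tested.

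Mrps26, a mitochondria-specific small-subunit gene (ENSMUSG00000037740, chr2:130563742-130568695, plus strand, GRCm38), had the largest fall. Its CPM was 57.8, 55.5 and 65.1 in the control libraries, 30.1, 35.2 and 31.3 in those given high glucose and 46.6, 53.7 and 50.9 in those given AGEs. All 3 high glucose libraries were below every other library, and those of AGEs were just below control. The log2 fold change in high glucose was −0.88 ± 0.10 (SE, edgeR adjusted p = 0.000125).

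Mrps18b (ENSMUSG00000024436, chr17:35910379-35916389, minus strand) is one of 3 genes for paralogues of the bacterial protein S18. Mrps18b had 112, 129.9 and 154 CPM in the control libraries, 77.04, 77.6 and 62.5 in those given high glucose and 128, 142 and 155 in those given AGEs. The high glucose libraries again lay below all others, with a log2 fold change of −0.87 ± 0.13 (edgeR adjusted p = 0.000792). Its paralogues were not called. Mrps18a, whose product sits in the large subunit, had 51.0, 55.4 and 63.5 CPM in control and 54.7, 55.7 and 39.3 in high glucose, so the groups overlapped (log2 fold change −0.18 ± 0.14, edgeR adjusted p = 0.339). Mrps18c, in the small subunit, had 45.9, 41.8 and 43.5 CPM in control and 47.8, 43.03 and 41.1 in high glucose (0.01 ± 0.08, edgeR adjusted p = 0.954). Of the 3 paralogues, Mrps18b alone was called under the main scaling. With FPKM or with an offset for GC content and length, Mrps18c was called higher, by 0.18 to 0.33 on the log2 scale. The differences between the paralogues were not tested.

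Mrpl9 (ENSMUSG00000028140, chr3:94443318-94448708, plus strand) encodes the homologue of bacterial L9. It had 109, 97.4 and 118 CPM in the control libraries, 64.1, 63.3 and 62.4 in those given high glucose and 105, 102 and 101 in those given AGEs. The high glucose libraries were close to each other and lay far below the rest (log2 fold change −0.77 ± 0.08, edgeR adjusted p = 7.2e-05).

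Mrpl58 (ENSMUSG00000018858, chr11:115403752-115412674, plus strand) encodes a peptidyl-tRNA hydrolase, built into the large subunit, that frees stalled chains. It had 41.2, 27.3 and 25.8 CPM in the control libraries, 20.7, 18.4 and 17.7 in those given high glucose and 23.4, 25.3 and 21.5 in those given AGEs. High glucose lay below control in every library, but control library 1 stood well above its 2 replicates (log2 fold change −0.73 ± 0.18, edgeR adjusted p = 0.00874). It stayed lower in each of the 19 other settings tried, by 0.46 to 0.86 on the log2 scale.

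Mrpl47 and Mrpl21 completed the 6 largest falls. Mrpl47 (ENSMUSG00000037531, chr3:32725397-32737147, minus strand), the homologue of bacterial L29 near the exit of the peptide tunnel, had 49.4, 44.1 and 43.1 CPM in control and 31.4, 25.5 and 25.9 in high glucose (log2 fold change −0.72 ± 0.11, edgeR adjusted p = 0.000642). Mrpl21 (ENSMUSG00000024829, chr19:3282901-3292837, plus strand), the homologue of bacterial L21, had 58.6, 54.9 and 62.7 CPM in control and 38.4, 39.1 and 32.4 in high glucose (−0.68 ± 0.10, edgeR adjusted p = 0.000457). In both genes the AGEs libraries were near control, at 47.2 to 53.5 and 52.7 to 57.5 CPM. The other 22 lower genes fell by 0.29 to 0.66 on the log2 scale, and among them were Mrps27, an RNA-binding pentatricopeptide protein, and Mrps22, in which mutations cause mitochondrial disease in humans. The abundant Mrpl54 and Mrpl2 also fell, by 0.35 and 0.45 on the log2 scale. Mrpl54 was called at an edgeR adjusted p of 0.0216, and the call was lost under total counts (edgeR adjusted p = 0.209), under FPKM, and without control library 1 or 3 or high glucose library 1 or 3.

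Mrps6 (ENSMUSG00000039680, chr16:92058270-92112227, plus strand), the small-subunit homologue of bacterial S6, rose more than any other. It had 39.4, 38.5 and 36.3 CPM in the control libraries, 93.5, 82.6 and 86.2 in those given high glucose and 31.7, 36.4 and 42.5 in those given AGEs. The high glucose libraries lay far above all 6 others (log2 fold change 1.20 ± 0.11, edgeR adjusted p = 4.11e-05). Mrps6 shares 159 exon bases on the same strand with Slc5a3, the sodium/myo-inositol cotransporter, a gene known to be induced by hypertonic medium, so reads of the shared exon may be split between them. Slc5a3 had 24.2 ± 3.23 CPM in control and 39.9 ± 5.74 in high glucose (SD, n = 3; log2 fold change 0.72, edgeR adjusted p = 0.0149). The part of shared reads in the rise of Mrps6 was not tested.

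Mrps21 (ENSMUSG00000054312, chr3:95862634-95871519, minus strand), the homologue of bacterial S21, was next and more scattered. It had 19.8, 39.04 and 44.2 CPM in the control libraries, 80.5, 78.8 and 64.7 in those given high glucose and 16.9, 17.3 and 32.7 in those given AGEs. The high glucose libraries lay above all others, and control library 1 stood below its 2 replicates (log2 fold change 1.12 ± 0.32, edgeR adjusted p = 0.0214). The call was lost without control library 1 (adjusted p = 0.0516), high glucose library 1 (0.0604) or high glucose library 2 (0.0559), with log2 fold changes of 0.84 to 1.08.

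Mrpl51 (ENSMUSG00000030335, chr6:125191801-125196269, plus strand), a mitochondria-specific large-subunit gene, was steadier. It had 40.9, 42.3 and 43.5 CPM in the control libraries, 76.2, 67.5 and 65.6 in those given high glucose and 35.5, 39.6 and 37.8 in those given AGEs, with the high glucose libraries above all others (log2 fold change 0.73 ± 0.09, edgeR adjusted p = 0.00016).

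Smaller rises were seen in 6 further genes. Mrpl41 (ENSMUSG00000036850, mitochondria-specific) had 25.5, 25.3 and 28.1 CPM in control and 37.1, 39.9 and 33.6 in high glucose (log2 fold change 0.49 ± 0.10, edgeR adjusted p = 0.00438). Mrpl34 (ENSMUSG00000034880, the homologue of bacterial L34) had 35.8, 34.7 and 37.0 CPM in control and 52.3, 47.03 and 44.9 in high glucose (0.42 ± 0.10, edgeR adjusted p = 0.00855). Both rose in every high glucose library above every control library. Mrpl18 (ENSMUSG00000057388), the homologue of the bacterial 5S RNA-binding protein L18, had 81.0, 73.5 and 75.2 CPM in control and 103.9, 102 and 91.9 in high glucose (0.37 ± 0.09, edgeR adjusted p = 0.00663). Mrpl49 rose by 0.33, Mrps12 by 0.31 and Mrpl33 by 0.24 on the log2 scale. The call of Mrpl33 was lost in 7 of the 19 other settings (edgeR adjusted p up to 0.131), among them the fits without control library 1 or 2, high glucose library 1 or 2, or AGEs library 1. That of Mrpl49 was lost in 4, without control library 1 or 2 or high glucose library 1 or 2 (edgeR adjusted p up to 0.0875). Mrps12, the homologue of the decoding-centre protein S12, had 29.2, 26.2 and 34.0 CPM in control and 37.4, 38.5 and 35.2 in high glucose. Its edgeR adjusted p of 0.0489 was next to the threshold and was lost in 11 of the 19 other settings, where log2 fold changes ran from 0.23 to 0.35.

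**Figure D2:**
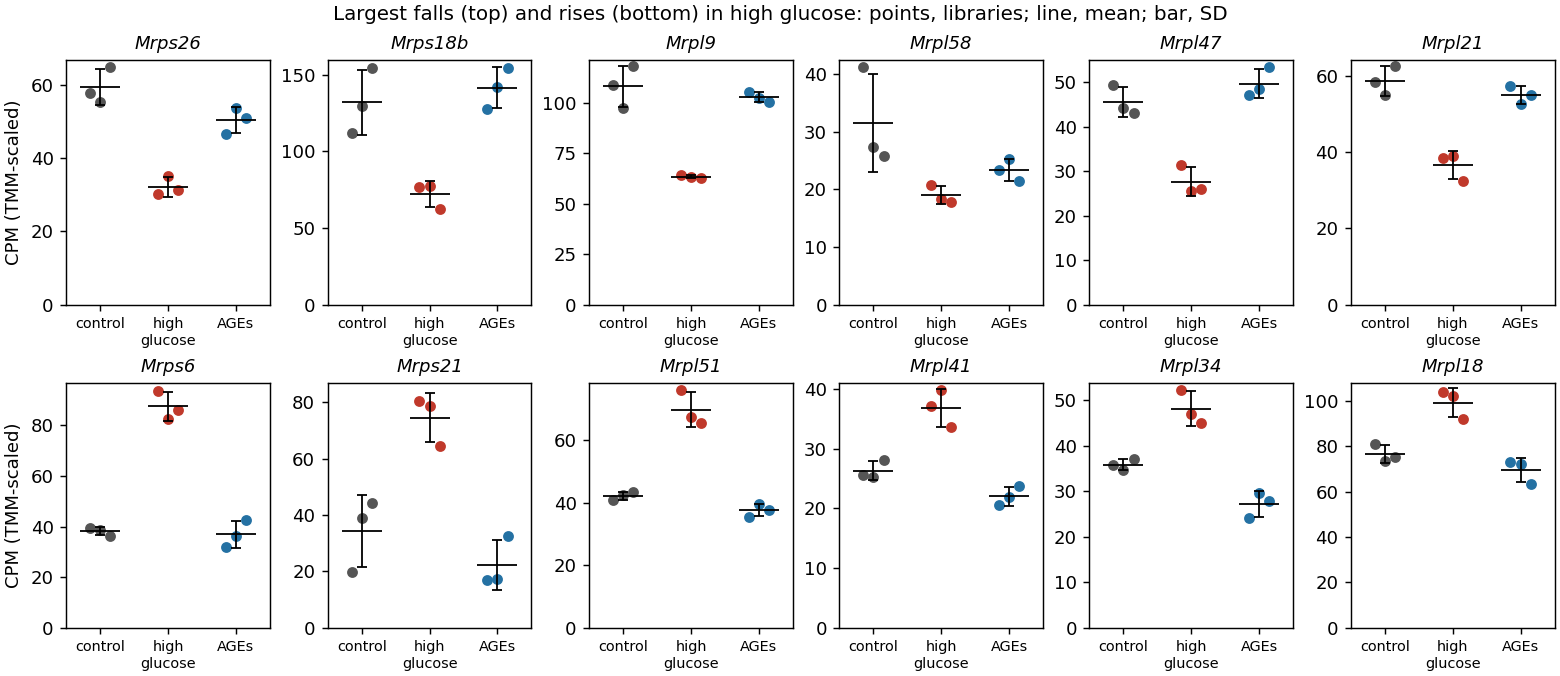
CPM of the 6 genes with the largest falls (top) and the 6 with the largest rises (bottom) in high glucose; points are libraries, horizontal lines group means and bars SD (n = 3), on axes that start at 0. The genes were chosen by their calls in this comparison, and in each panel the high glucose points do not overlap those of control. The control points of Mrps21 run from 19.8 to 44.2 CPM.

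Other genes of functional interest were not called in high glucose. Mrpl12 had 150.4, 138 and 166 CPM in control and 138, 129 and 124 in high glucose, and the groups overlapped (log2 fold change −0.21 ± 0.11, edgeR adjusted p = 0.17). Mrps36 had 30.03, 28.4 and 35.0 CPM in control and 34.1, 38.8 and 34.7 in high glucose (0.20 ± 0.12, edgeR adjusted p = 0.212), and was called higher under total counts (0.38, edgeR adjusted p = 0.028) and under FPKM. Mrps35 was at −0.16 ± 0.08 (edgeR adjusted p = 0.148). Mrpl53 had 7.77, 3.08 and 1.74 CPM in control and 3.25 to 3.73 in high glucose, so that the scatter in control covered all of high glucose.

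Shared reads bear on some of these values, since the files do not say whether counting used strand. Of the 78 genes, 18 share exon bases in GENCODE M21 with another gene that holds at least 10% of their counts. Without them, 23 of 60 genes were lower and 6 higher, 38.3% and 10%. Among the higher genes, Mrpl18 shares 141 exon bases on opposite strands with Tcp1, a chaperonin subunit with 9.09 times its counts, which fell by 0.43 on the log2 scale. Mrpl49 shares 91 with Syvn1, an endoplasmic reticulum ubiquitin ligase, which fell by 1.80. These partners went the opposite way from the ribosomal gene. Among the lower genes, Mrpl21 shares 117 exon bases with the helicase gene Ighmbp2, which fell by 0.61, and Mrpl47 shares 452 with Actl6a, a chromatin remodelling subunit, which fell by 0.21, and 616 with Ndufb5, a subunit of respiratory complex I, which was not called. Mrpl48, Mrpl24 and Mrpl19, also lower, share 708, 594 and 1962 exon bases with Rab6a, Rrnad1 and Gcfc2, none of which was called. Rab6a held 2.86 times the counts of Mrpl48. The part of shared reads in these results was not tested.

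Many of these genes start close to a neighbour on the opposite strand. A neighbour on the other strand whose start lay within 1000 bases was found for 32 of the 78 genes, 41%. For tested protein-coding genes it was 2079 of 13468, 15.4%. The order of the starts was not set, so pairs that overlap at their starts, such as Mrps11 and Mrpl46, are included. Of the 12 lower genes with such a neighbour, 3 neighbours were also lower, 2 were higher and 7 were not called. Mrps18b fell while Ppp1r10, a nuclear regulator of protein phosphatase 1 whose start lies 45 bases away, rose by 1.35 on the log2 scale, from 37.8 ± 2.44 to 96.02 ± 1.44 CPM (SD, n = 3; edgeR adjusted p = 9.08e-05). Mrpl2 fell while Klc4, a kinesin light chain, rose by 0.74 (edgeR adjusted p = 0.000338). Mrps27 and Ptcd2, a mitochondrial RNA-processing protein, fell together, by 0.58 and 0.35. Of the 5 higher genes with a neighbour, Mrpl51 shared its direction with Ncapd2, a condensin subunit, which rose by 0.88 (edgeR adjusted p = 4.19e-05), and Mrpl49 rose where Fau, a cytosolic ribosomal protein gene, fell by 0.82. Adjacent starts thus went with neighbours that changed in the same direction, in the opposite direction or without a call.

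Letters of binding motifs known from promoters of nuclear genes for mitochondria were common in both directions. RefSeq windows (GRCm38.p6, 250 bases before to 50 after a start) matched 69 of the 78 genes, with 75 windows. The ETS motif CCGGAAG, on either strand, was in 34.7% of these windows and in 8.86% of all 32851 windows. The NRF1 core GCGCANGC was in 29.3% and 9.95%, and the YY1 motif AANATGGC in 28.0% and 6.05%. All windows covered 27025 genes and were not limited to tested protein-coding genes, as the 78 genes are, so the sets are unlike. Of windows of lower genes 8 of 31 held the ETS letters, and of windows of higher genes 6 of 9, counts too small to set apart. The motifs are different strings, so that one window can hold several, and a match is a description of letters only. To show such letters, or their absence, beside falls and rises, the 100 bases before the start are given in the sense direction for the 3 lower and 3 higher genes with the largest changes whose stretch touches no annotated exon, with any match in capitals. The lower genes are Mrpl58 (chr11:115403652-115403751, plus strand), Mrpl48 (chr7:100608302-100608401, minus strand, the first of its 4 windows) and Mrps22 (chr9:98601680-98601779, minus strand). The higher genes are Mrpl41 (chr2:24975099-24975198, minus strand), Mrpl34 (chr8:71464826-71464925, plus strand) and Mrps12 (chr7:28741822-28741921, minus strand).
Mrpl58: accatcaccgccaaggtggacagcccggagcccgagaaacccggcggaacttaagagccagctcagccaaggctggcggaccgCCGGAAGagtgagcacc
Mrpl48: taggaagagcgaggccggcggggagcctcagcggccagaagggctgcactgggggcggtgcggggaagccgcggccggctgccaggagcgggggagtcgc
Mrps22: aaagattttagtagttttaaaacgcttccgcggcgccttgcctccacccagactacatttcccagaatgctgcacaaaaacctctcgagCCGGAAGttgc
Mrpl41: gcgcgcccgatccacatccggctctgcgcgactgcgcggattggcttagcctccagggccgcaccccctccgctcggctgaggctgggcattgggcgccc
Mrpl34: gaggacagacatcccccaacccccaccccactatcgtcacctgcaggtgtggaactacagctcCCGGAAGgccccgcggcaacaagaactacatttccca
Mrps12: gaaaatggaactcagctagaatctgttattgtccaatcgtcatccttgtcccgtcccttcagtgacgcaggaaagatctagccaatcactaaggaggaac
Mrpl58, Mrps22 and Mrpl34 each hold 1 match to the ETS letters in this stretch, and Mrpl48, Mrpl41 and Mrps12 hold none of the 3 motifs there. With a match, Mrpl34 rose by 0.42 on the log2 scale, whereas Mrpl58 and Mrps22 fell by 0.73 and 0.49. Without one, Mrpl41 and Mrps12 rose by 0.49 and 0.31, and Mrpl48 fell by 0.64.

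The fold change was related to transcript length among the 78 genes. Length here is that of the longest annotated transcript of a gene. Spearman's rho between the log2 fold change in high glucose and this length was −0.40 (n = 78 genes, which share the same 9 libraries). Over the 60 genes without overlapping exons it was −0.47. Over all 17662 tested genes with a length it was 0.12. Of the 39 genes with 1849 bases or less, 10 were lower and 7 higher, and of the 39 with 1884 bases or more, 18 were lower and 2 higher. Over all genes divided at the same length, 18.6% of the shorter were lower and 11.2% higher, and 20.2% of the longer were lower and 23.5% higher. An offset for GC content and length, added after the data were seen, gave 30 lower and 15 higher genes and a median of −0.19. These were 38.5% and 19.2%, against 22.1% and 20.3% over all genes. Mrps21 (488 bases) and Mrpl34 (607 bases) are among the shortest, and Mrps26 (4278 bases) among the longer ones, but Mrpl51 (3427 bases) rose. The part of fragment or RNA quality in this relation was not tested.

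**Figure D3:**
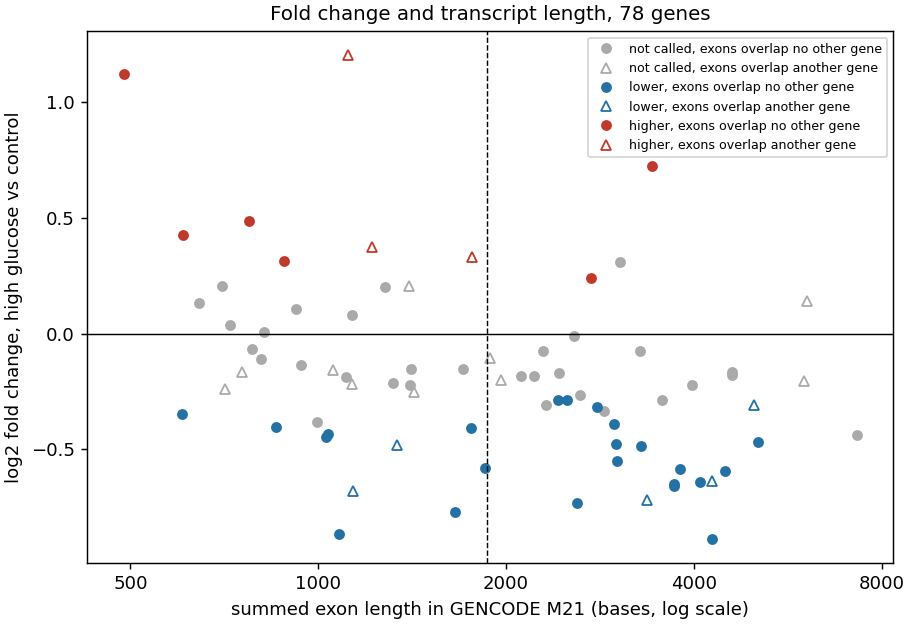
Log2 fold change in high glucose against the length of the longest transcript (log axis, labelled in the figure as summed exon length) for the 78 genes. Open triangles mark the 18 genes that share exon bases with a gene holding at least 10% of their counts, and filled circles the others. Blue is lower, red higher and grey not called, and the dashed line marks the median length of 1866.5 bases. To the right of the line 2 genes are red and 18 blue; to the left, 7 are red and 10 blue.

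AGEs against control gave almost no calls among these genes. In this comparison edgeR called 0 of the 78 genes lower and 0 higher, where it called 0.0339% lower and 0.0509% higher over all genes, 15 genes in all. At an unadjusted p under 0.05 there were 8 of the 78 genes, 10.3%, against 12.4% of all genes, and the smallest adjusted p was 0.255. The median log2 fold change was −0.09, against −0.0047 over all genes. DESeq2 called 1 gene, Mrpl34, lower by 0.40 (adjusted p = 0.0303, and 0.255 by edgeR), where it called 305 of all genes, 1.73%. Mrpl34 had 24.2, 29.6 and 27.8 CPM in AGEs, below each control library. Without AGEs library 3, which stood apart, the count was still 0 in both directions by edgeR. Mrps18b stood at 0.10, Mrpl9 at −0.07, Mrps6 at −0.05 and Mrpl51 at −0.17 in this comparison, and at −0.87, −0.77, 1.20 and 0.73 in high glucose, where the same control libraries were used.

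**Figure D4:**
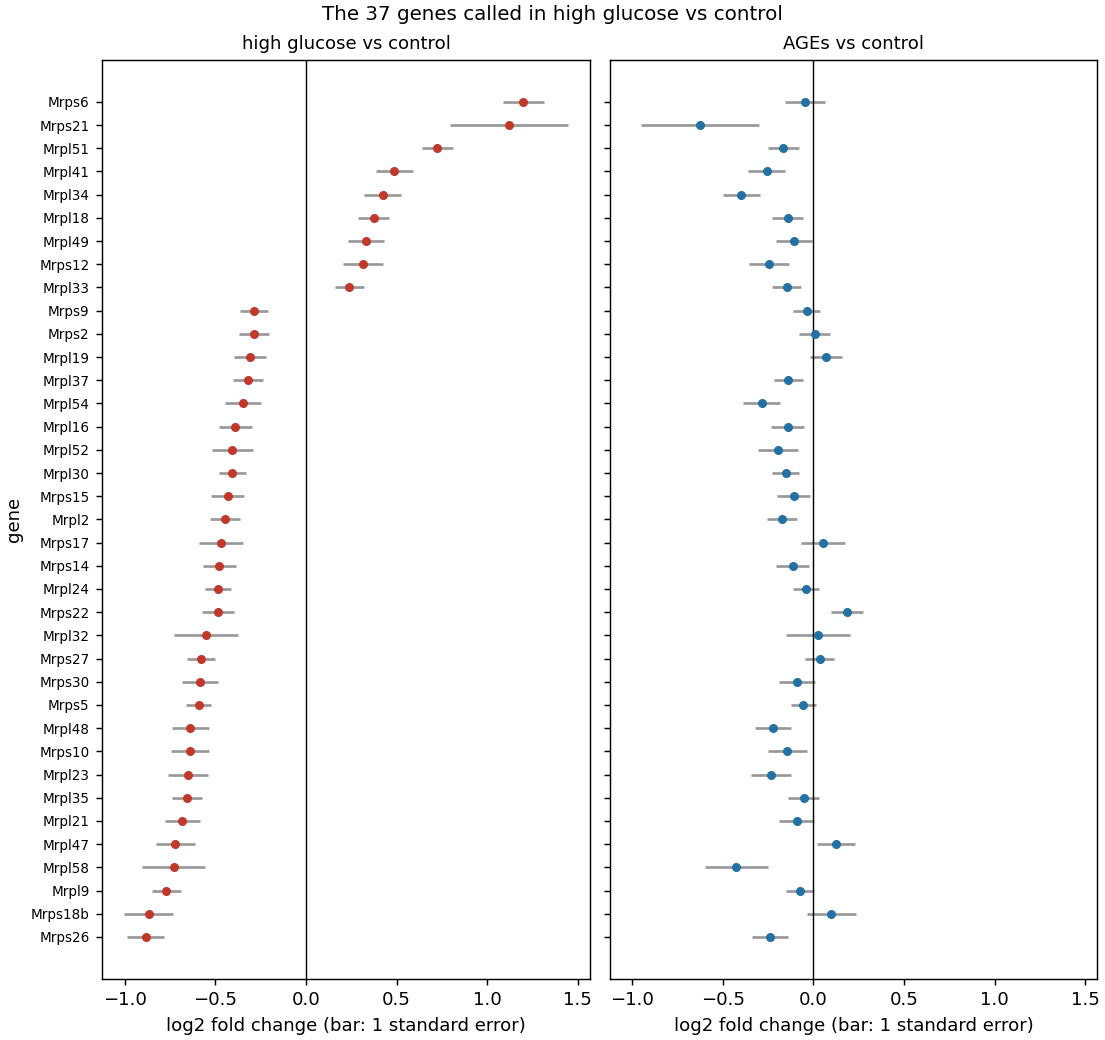
Log2 fold change against control, with bars of 1 standard error, of the 37 genes called in high glucose (left) and the same genes in AGEs (right). The left panel runs from −0.88 for Mrps26 to 1.20 for Mrps6; the genes were chosen by that panel, and in the right panel none passed the edgeR test.

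Set against high glucose, AGEs libraries had 13 of the 78 genes lower and 26 higher, against a background of 20.2% lower and 19.7% higher over all genes. The median log2 fold change was 0.13 over the 78 genes and −0.02 over all genes. This comparison uses the high glucose libraries again, so it adds no independent view of them. The largest differences upward were Mrps18b (0.97 ± 0.13, edgeR adjusted p = 0.000409), Mrpl47 (0.85 ± 0.11, 0.000245 by the same test), Mrpl9, Mrps22, Mrps26 and Mrps27, the last 4 at 0.61 to 0.70 on the log2 scale. The largest downward were Mrps21 (−1.75 ± 0.33, edgeR adjusted p = 0.00245), Mrps6 (−1.25 ± 0.11, 3.16e-05 by the same test), Mrpl51, Mrpl34, Mrpl41 and Mrps12, the last 4 at −0.89 to −0.56. With total counts in place of TMM factors, the split was 19 lower and 11 higher, where 28.9% of all genes were lower and 12.7% higher. The median of the 78 genes lay 0.15 above that of all genes on the log2 scale under either scaling, a distance that scaling factors cannot move. With FPKM the split was 20 lower and 12 higher, 25.6% and 15.4%. Over all genes it was 31.2% lower and 13.1% higher on log2(FPKM + 1), and 30.7% and 13.2% on log2(FPKM + 0.1). The median of the 78 genes then lay 0.026 and 0.12 above that of all genes.

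Genes that build and serve the mitochondrial ribosome were counted in the same test of high glucose against control. The shares over all genes in that test were 19.7% lower and 19.6% higher. Of 27 genes for assembly of the ribosome and modification of its RNA, 13 were lower and 2, Mettl15 and Ybey, higher. C1qbp, a matrix protein that binds RNA and the mitochondrial ribosome, fell from 449.5 ± 24.3 to 216.5 ± 19.9 CPM (SD, n = 3; log2 fold change −1.05 ± 0.08, edgeR adjusted p = 1.58e-05). Trub2, a pseudouridine synthase, fell by 0.76 and Noa1, a GTPase of small-subunit assembly, by 0.71. Of 12 translation factors, 3 were lower and 1 higher, 25% and 8.33%. Mrrf, which recycles ribosomes, fell by 0.87, whereas Gfm2, the elongation-factor-like GTPase that acts with it, rose by 0.96 (edgeR adjusted p = 0.00109). Of 5 mitoribosome proteins with other names (Dap3, Ptcd3, Chchd1, Aurkaip1 and Gadd45gip1), 0 were called in either direction, with 0 at an unadjusted p under 0.05. Of 17 mitochondrial aminoacyl-tRNA synthetases, 3 were lower and 4 higher, and their median was −0.18 on the log2 scale. Their 17.6% lower and 23.5% higher were near the shares over all genes.

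Genes that maintain or make up the mitochondrial genome were counted too. Of 10 genes for mitochondrial DNA maintenance and transcription, 5 were lower and 0 higher, among them Twnk, the DNA helicase, at −0.59 and Polg, the DNA polymerase, at −0.47. Of the 13 protein-coding genes of mitochondrial DNA, 0 were lower and 7 higher. The transcript of mt-Nd1, a subunit of respiratory complex I, rose from 2658 ± 71.0 to 4664 ± 654 CPM (SD, n = 3; log2 fold change 0.81 ± 0.11, edgeR adjusted p = 0.000373). In AGEs against control, edgeR called 0 of these 13 genes. At an unadjusted p under 0.05 there were 6, 46.2% against 12.4% of all genes. The median log2 fold change of the 13 genes was 0.27 in AGEs and 0.34 in high glucose. Of 80 nuclear genes for oxidative phosphorylation, 11 were lower and 10 higher in high glucose, 13.8% and 12.5%. Both were below the shares over all genes, 19.7% and 19.6%. Of 10 regulators of such genes, 2 were lower and 2 higher, 20% each, near those shares. Among them Myc fell by 1.70 and Pprc1, a coactivator of the PGC-1 family, by 1.31. Yy1 rose by 0.74 and Ppargc1a, which encodes PGC-1α, by 0.68. Cytosolic ribosomal protein genes differed from those of mitochondria in their counts: 76 of 80 tested were lower and 0 higher, with a median of −0.83, where the 78 mitochondrial genes had 28, 9 and −0.22. No test of the difference between these lists was made.

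**Figure D5:**
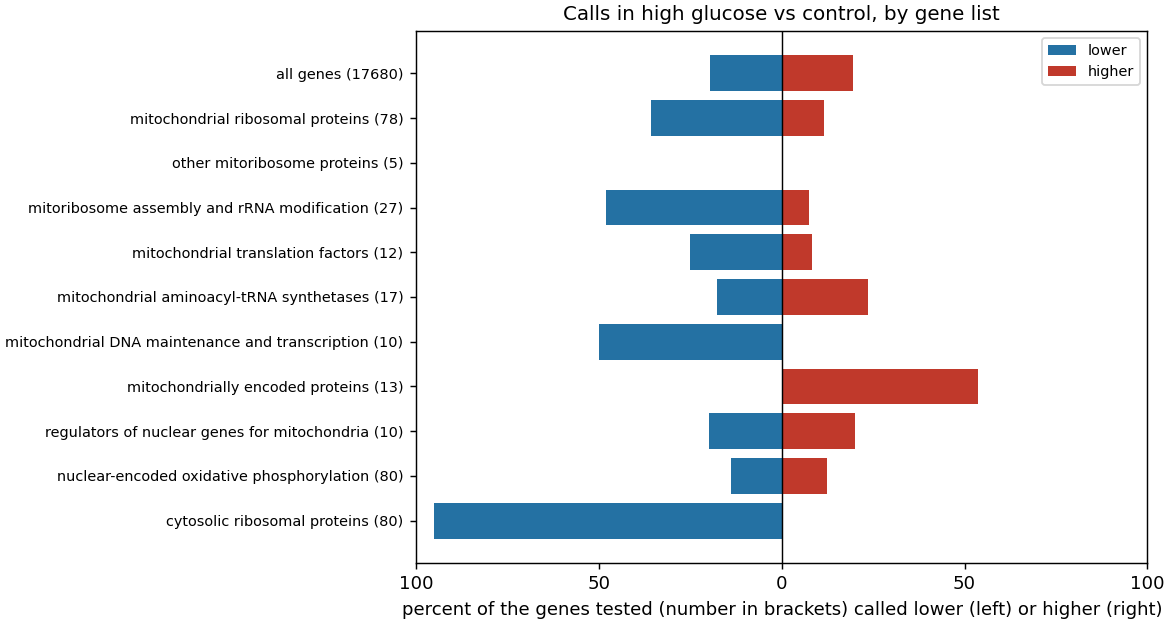
Percent of tested genes called lower (blue, left) or higher (red, right) in high glucose against control, for all 17680 genes, the 78 genes and 9 other lists, with the number tested in brackets. The 78 genes had 35.9% lower and 11.5% higher, assembly genes 48.1% and 7.41%, mitochondrially encoded genes 0% and 53.8%, and cytosolic ribosomal protein genes 95% and 0%.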

How the data were processed

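RNA from 9 libraries of the mouse line MCP5 (3 control, 3 high glucose, 3 AGEs) was sequenced. The authors deposited whole-number read counts and FPKM values per gene in 1 table, per the file headers. Cutadapt 1.9, FastQC and the build GRCm38 come from the submitters' processing notes. The aligner, counting tool, annotation release and strand setting were not given. From the counts, all 9 libraries entered 1 fit with 3 group means in edgeR 4.0.16 (glmQLFit and glmQLFTest, filterByExpr, TMM) under R 4.3.3, with two-sided tests and Benjamini-Hochberg adjustment over 17680 genes. The SE of a log2 fold change was its size divided by the square root of F. DESeq2 1.42.0 and limma 3.58.1 on log2(FPKM + 1) or log2(FPKM + 0.1) were alternatives. The fit was also run on simulated counts, with changes in far fewer genes than were called in high glucose. That setting is unlike these data, so the run is no check on the calls reported. Same-group libraries were compared for copies, and all differed beyond counting error (chi-square per degree of freedom 44.1 to 101). Exon overlaps and lengths came from GENCODE M21, in which 69 of the 78 genes had the same start, end and strand. The named genes were the 6 strongest called rises and 6 strongest called falls in high glucose against control and in AGEs against high glucose, the called genes of AGEs against control (0), the 3 highest and 3 lowest by FPKM, 7 chosen for their roles, and up to 3 called genes of each other list. Neighbouring genes and any others named were picked once their values had been seen. The genes, lists and tests were chosen with earlier results of these data known.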

Additional observations from a re-analysis of the deposited data

How the results depend on the processing

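Of the 28 lower and 9 higher genes in high glucose against control, 19 and 5 kept their call in all 19 other settings. On total counts 14 genes were higher, 17.9% against 27.2% of all genes, at a median log2 fold change of −0.037. With limma on log2(FPKM + 1) and on log2(FPKM + 0.1) 16 were higher in each, with medians of −0.031 and −0.032. That was 20.5%, against 29.6% and 29% of all genes, whose medians were 0.08 and 0.17. The offset for GC content and length, chosen after seeing the data, gave 15 higher, 19.2% against 20.3% of all genes. Leaving out each library in turn gave 5 to 9 higher and 21 to 30 lower genes. Over all genes these fits called 15.3% to 19.6% lower and 15.7% to 20.1% higher. The 5 higher came without high glucose library 1 or 2, and the 21 lower without high glucose library 3. In high glucose library 3 the median deviation of the 78 genes from control was −0.33, against −0.16 and −0.14 in libraries 1 and 2. In AGEs against control, DESeq2 called 1 gene lower and every other setting called 0 genes. In AGEs against high glucose, total counts gave 19 lower and 11 higher, with a median of −0.064. Limma gave 20 lower and 12 higher under both pseudocounts, with medians of −0.061 and −0.062. The shares over all genes were 28.9% lower and 12.7% higher on total counts. With limma they were 31.2% and 13.1% or 30.7% and 13.2%. Leaving out the 18 genes with overlapping exons (chosen after seeing the data) gave 8 lower there. Leaving out each library in turn gave 9 to 12 lower, 18 to 26 higher and medians of 0.08 to 0.17 in that comparison. Over all genes those fits called 16.1% to 19.5% lower and 16% to 19.1% higher. A fit with the replicate block gave 26 lower and 7 higher in high glucose, where it called 17.9% and 17.8% of all genes. The replicate numbers did not pair the libraries (correlations of deviations −0.07 to 0.08). The cause of these moves was not tested. No named gene reversed direction with a call. Depth sets little limit here: the lowest count of any of the 78 genes in a library was 104.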
